A study of Mus musculus with 2 samples.

Results

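10 genes of the p53 and growth arrest program were followed, chosen by symbol: Cdkn1a, Cdkn1b, Trp53, Mdm2, Ccng1, Ccnd1, Ccnd2, Gadd45a, Gadd45b and Btg2. All 10 were found among the 22882 gene symbols of the data, each on a row of its own, and all 10 passed the filter on low values. The genes were chosen with the contrast described here already known, so their differences are given as a description and without a test.

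The data come from hearts of 23 day old C57BL6/J mice of mixed sex. Control mice carried floxed Med1 alleles (Med1fl/fl), and csMed1-/- mice carried the same floxed alleles plus Cre recombinase driven by the α-myosin heavy chain promoter, which is active in cardiomyocytes and there deletes Med1, a subunit of the Mediator complex. The RNA of 5 hearts was pooled for each genotype and made into 1 library, so there is no replicate and no spread between animals for any value. No Cre is named for the control mice, and an effect of Cre itself cannot be told apart from that of Med1 loss. Expression is given as FPKM, fragments scaled to transcript length and to the size of the library. A comparison between the libraries also depends on how they were scaled, which is not given. The FPKM of all symbols summed to 780366 in Med1fl/fl and 716365 in csMed1-/- heart.

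p53, the product of Trp53, is a transcription factor that is kept low by the ubiquitin ligase Mdm2 and is stabilised by DNA damage and other stress. It activates genes that stop the cell cycle, among them Cdkn1a, whose product p21 inhibits cyclin-dependent kinases, and it also activates Mdm2, which closes a feedback loop. D-type cyclins act on the other side and drive cells out of G1 with their kinases. Cardiomyocytes leave the cell cycle soon after birth, and CDK inhibitors are part of that exit, while Cdkn1a can also be induced without p53 by stress and growth factor signalling.

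Promoter sequences are shown for Cdkn1a, the member with the largest change, and for Gadd45b, Btg2 and Gadd45a, which also differed more than 2-fold, so that the letters next to each start can be read beside its expression. The RefSeq promoter table (GRCm38.p6) held 9 windows for 8 of the 10 genes. Ccnd1 and Ccnd2 had no entry. Each line gives the 150 bases before an annotated start, 5′ to 3′ on the strand of the gene. Capitals mark matches on either strand to 4 motifs. The GC box was searched as GGGCGG. The CCAAT box was searched by the letters of its name, and the TATA box as TATAAA. The last is the p53 decamer, the consensus of which p53 binds a pair.
Cdkn1a, upstream start, chr17:29090829-29090978, plus strand: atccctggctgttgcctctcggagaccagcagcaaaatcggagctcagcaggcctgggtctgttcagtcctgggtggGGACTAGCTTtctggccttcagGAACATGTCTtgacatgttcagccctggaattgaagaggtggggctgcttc
Cdkn1a, downstream start, chr17:29093619-29093768, plus strand: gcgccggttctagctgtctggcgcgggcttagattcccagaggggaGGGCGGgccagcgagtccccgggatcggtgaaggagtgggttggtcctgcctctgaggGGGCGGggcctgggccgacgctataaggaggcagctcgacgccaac
Gadd45b, chr10:80929941-80930090, plus strand: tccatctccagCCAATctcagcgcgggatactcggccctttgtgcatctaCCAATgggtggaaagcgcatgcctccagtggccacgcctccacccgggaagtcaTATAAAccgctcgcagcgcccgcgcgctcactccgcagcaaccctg
Btg2, chr1:134079156-134079305, minus strand: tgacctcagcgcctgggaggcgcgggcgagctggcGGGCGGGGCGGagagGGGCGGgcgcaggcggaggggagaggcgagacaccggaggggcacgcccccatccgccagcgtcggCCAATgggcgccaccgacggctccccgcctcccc
Gadd45a, chr6:67037408-67037557, minus strand: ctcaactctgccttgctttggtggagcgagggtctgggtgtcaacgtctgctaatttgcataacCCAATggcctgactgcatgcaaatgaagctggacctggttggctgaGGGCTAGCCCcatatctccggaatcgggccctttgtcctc

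The 2 starts of Cdkn1a differ in these letters. Within 250 bases before the upstream start there were 2 p53 decamers, at 73 to 64 and at 51 to 42 bases before the start, which together met the definition of a full p53 site, 2 decamers at most 13 bases apart. Such a full site was found in 0.0639% of the 32851 promoter windows of the table (21 windows), and a decamer in 7.13%. The letters directly after the decamer nearer the start, tgacatgttc, departed from the decamer only at their first letter and were not marked. Which pair p53 binds was not tested. The window before the downstream start held no decamer and 2 GC boxes, and it was richer in CpG, with 19 CpG and 64.8% GC against 2 CpG and 54% GC before the upstream start. Cdkn1a stands on 1 row of the data, so which of them gave the RNA cannot be read from it.

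Trp53, Mdm2, Ccng1 and Gadd45a each had 1 p53 decamer within 250 bases, and Cdkn1b, Gadd45b and Btg2 had none. A CCAAT box was found in all 7 of these other genes, against 33.8% of all windows. The TATA box of Gadd45b lay 46 to 41 bases before its start, and such a box was present in 12.4% of all windows. Overlapping GC boxes were counted separately, which gave Btg2 3 of them, and a GC box was present in 32.7% of all windows. These are matches of letters in a short window, and elements farther from the start were not searched.

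Depth was not given in the files, and it was roughly estimated from the smallest values. Among low genes with a single annotated transcript, the product of FPKM and length piled up at the value of 1 fragment, which put the Med1fl/fl library at 59200000 to 68500000 fragments and the csMed1-/- library at 80600000 to 90400000, depending on whether 199 bases were taken off each length for the ends of transcripts. On that scale the thinnest value among the members, Gadd45a in csMed1-/- heart, rested on about 130 to 140 fragments and every other on about 300 or more. These figures bear on counting error only, and the variation between animals or pools is unknown.

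Med1 itself had 3.38 FPKM in Med1fl/fl and 0.412 FPKM in csMed1-/- heart. Its level was 0.122 of control. Genes were compared when neither library listed them at 0 and at least one gave 1 FPKM. Among the 10489 such genes, 31.5% differed more than 2-fold, 13.6% being higher and 18.0% lower in csMed1-/- heart. Of the members, 5 of 10 passed 2-fold, with 3 higher (Cdkn1a, Gadd45b, Btg2) and 2 lower (Ccnd1, Gadd45a). The median log2 ratio of the 10 members was -0.06 (quartiles -0.83 and 1.13), and that of all genes compared was -0.07 (quartiles -0.72 and 0.55). Past 4-fold was 1 of the 10 members, Cdkn1a, beside 9.46% of all genes, 4.32% higher and 5.14% lower.

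**Figure D1:**
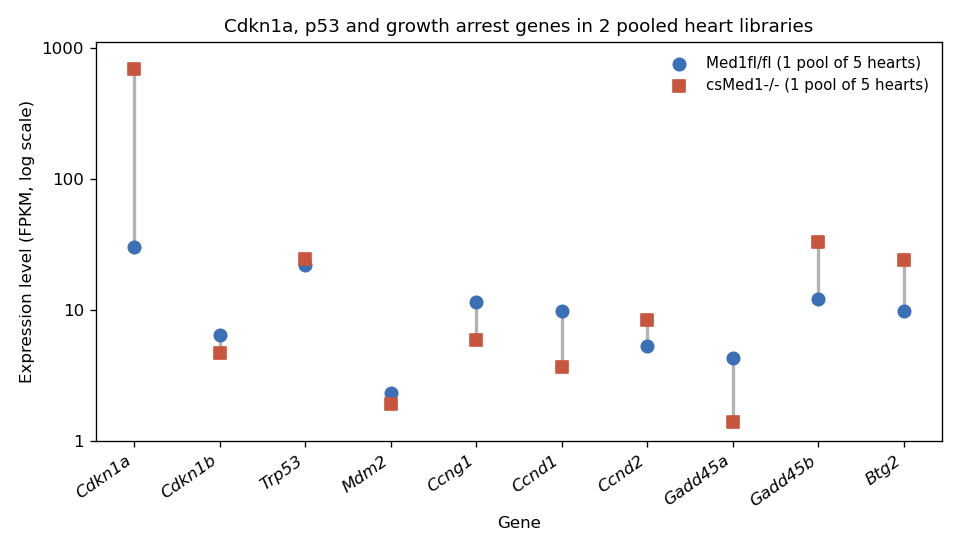
Expression level in FPKM (log scale) of the 10 genes in the Med1fl/fl library (circles) and the csMed1-/- library (squares), each 1 pool of 5 hearts, with a grey bar joining the values of a gene. Cdkn1a goes from 30.5 to 693 FPKM, while every other member stays between 1.41 and 33.2 FPKM in both libraries.

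Cdkn1a encodes p21, the CDK inhibitor that is the best known transcriptional target of p53. Its level was 30.5 FPKM in Med1fl/fl and 693 FPKM in csMed1-/- heart, 22.7 times as high (log2 ratio 4.51, no replicates). The paper also reports Cdkn1a as higher by quantitative PCR, with a smaller ratio than by sequencing. Only 43 of the 10489 genes compared had a larger ratio, and among the 5426 genes at 10 FPKM or more in either library it ranked 23rd. In control heart Cdkn1a was the 2509th most abundant of the 22882 symbols, and in csMed1-/- heart it was the 200th. The difference of 663 FPKM was the 38th largest increase among all 22882 symbols. Cdkn1a lies on the plus strand at chr17:29090976-29100727 (GENCODE M21, GRCm38), with 2 coding RefSeq transcripts of 922 and 1913 bases.

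The other inhibitors of its family stayed within 2-fold. Cdkn1b (chr6:134920401-134925513, plus strand) encodes p27, the Cip/Kip inhibitor that accumulates in resting cells. It had 6.43 FPKM in Med1fl/fl and 4.72 FPKM in csMed1-/- heart (ratio 0.734). Cdkn1c, which encodes p57, had 22.1 and 15.3 FPKM (ratio 0.690). In control heart Cdkn1a made up 51.7% of the summed FPKM of these 3 genes, Cdkn1c 37.5% and Cdkn1b 10.9%. In csMed1-/- heart Cdkn1a made up 97.2%, and the sum was 12.1 times as high. The INK4 inhibitors act on Cdk4 and Cdk6 alone. Of these, Cdkn2c (8.65 and 6.84 FPKM) and Cdkn2d (22.2 and 30.3 FPKM) stayed within 2-fold. Cdkn2a (0.127 and 0.198 FPKM) and Cdkn2b (0.155 and 0.604 FPKM) were too low to be compared. Cdkn2a encodes p16 and p19ARF, which are often read as marks of senescence.

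Trp53 (chr11:69580359-69591873, plus strand) encodes p53 itself, which is controlled mostly at the level of the protein. It had 22.0 FPKM in Med1fl/fl and 24.4 FPKM in csMed1-/- heart (ratio 1.11). Mdm2 (chr10:117688875-117710758, minus strand), both a target of p53 and its main negative regulator, had 2.33 and 1.93 FPKM (ratio 0.827). In control heart the level of Cdkn1a was 1.39 times that of Trp53, and in csMed1-/- heart it was 28.4 times. The 12 compared genes among 19 p53 regulators and relatives had a median log2 ratio of -0.15. Of these 12, 0 were higher and 1 was lower by more than 2-fold, beside 13.6% and 18.0% of all genes compared. The lower gene was Chek2, the checkpoint kinase that phosphorylates p53 (1.69 and 0.474 FPKM, ratio 0.280). With 1 FPKM added to both values Chek2 was within 2-fold, and with 1 FPKM required in each library it was not compared. Ppm1d, a phosphatase that is itself a p53 target, had 3.04 and 3.78 FPKM (ratio 1.24), and Usp7, which removes ubiquitin from p53 and Mdm2, had 3.05 and 2.93 FPKM (ratio 0.961). Trp73 was listed at 0 in control and at 0.00662 FPKM in csMed1-/- heart.

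Ccng1 (chr11:40748552-40755311, minus strand) encodes cyclin G1, a p53 target that recruits a phosphatase to Mdm2. It moved the opposite way to Cdkn1a, with 11.6 FPKM in Med1fl/fl and 5.95 FPKM in csMed1-/- heart. Its ratio of 0.514 (log2 ratio -0.96) was the nearest to the 2-fold line of any member. When the libraries were scaled to the same sum without the 100 highest genes, it lay just past that line at -1.01. The next members past the line were Btg2 on the higher side (log2 ratio 1.29) and Ccnd1 on the lower side (-1.43).

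Ccnd1 and Ccnd2, which encode cyclins D1 and D2, the regulatory partners of Cdk4 and Cdk6, went in opposite directions. Ccnd1 (chr7:144929931-144939925, minus strand) had 9.83 FPKM in Med1fl/fl and 3.66 FPKM in csMed1-/- heart (ratio 0.372, log2 ratio -1.43). Ccnd2 (chr6:127125162-127152193, minus strand) had 5.32 and 8.47 FPKM, a ratio of 1.59 (log2 ratio 0.67), within 2-fold. The level of Ccnd2 was thus 0.541 times that of Ccnd1 in control and 2.31 times in csMed1-/- heart. Neither was the main D-type cyclin of these hearts. Ccnd3 had 78.0 and 96.7 FPKM, and its share of the D-cyclin sum was 83.7% in Med1fl/fl and 88.9% in csMed1-/- heart. All 3 genes together were at 1.17 times the control level.

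**Figure D2:**
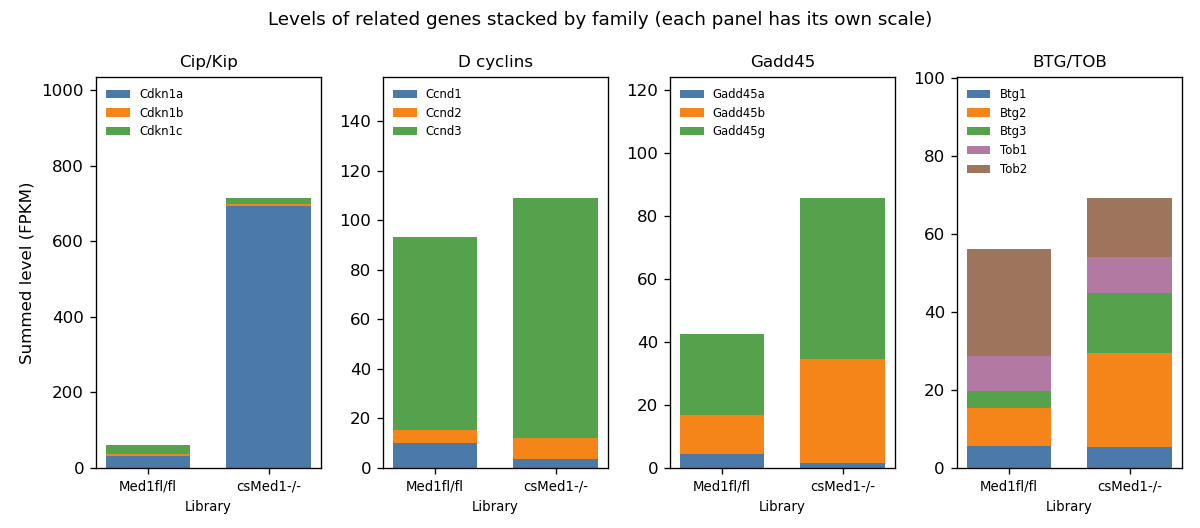
Stacked FPKM of the Cip/Kip inhibitors, the D-type cyclins, the Gadd45 genes and the BTG/TOB genes in the Med1fl/fl and csMed1-/- libraries (1 pool each, each panel with its own axis from 0). Cdkn1a takes 97.2% of the Cip/Kip sum in csMed1-/- heart, Ccnd3 takes most of the D-cyclin sum in both, and Gadd45a shrinks while Gadd45b and Gadd45g grow.

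Of 15 other genes of the G1 machinery, 7 were abundant enough to compare, with a median log2 ratio of 0.01. Past 2-fold were 1 higher and 1 lower of the 7, beside 13.6% and 18.0% of all genes compared. Cdk4, the main partner of D-type cyclins, had 63.7 and 64.1 FPKM, and Cdk2, the target of p21, had 10.1 and 12.7 FPKM. The level of Cdkn1a was 3.01 times that of Cdk2 in control and 54.6 times in csMed1-/- heart. The genes past 2-fold were E2f6, a repressor of the E2F family (25.3 and 4.50 FPKM, ratio 0.178), and E2f2, an activator (0.274 and 1.08 FPKM, ratio 3.93). With 1 FPKM added to both values E2f2 was no longer past 2-fold. It was compared only because it reached 1 FPKM in csMed1-/- heart, where it is high. With 1 FPKM required in each library, 0 genes of this list were higher and 1 was lower past 2-fold. All genes then gave 1037 higher and 1342 lower of 9160.

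The Gadd45 genes encode small stress-inducible proteins that bind p21, PCNA and MAP kinase kinases. Gadd45a (chr6:67035096-67037457, minus strand), the member of the family with the clearest p53 dependence, had 4.35 FPKM in Med1fl/fl and 1.41 FPKM in csMed1-/- heart (ratio 0.326, log2 ratio -1.62). Gadd45b (chr10:80930073-80932204, plus strand) had 12.2 and 33.2 FPKM, a ratio of 2.71 (log2 ratio 1.44). Gadd45g had 25.8 and 50.9 FPKM, a ratio of 1.97 that lay just within 2-fold and passed it when the log2 ratios were centred on their median. The level of Gadd45b was 2.81 times that of Gadd45a in control and 23.5 times in csMed1-/- heart. The share of Gadd45a in the FPKM of the 3 genes was 10.3% in control and 1.65% in csMed1-/- heart.

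Btg2 (chr1:134075170-134079120, minus strand) encodes an antiproliferative protein of the BTG/TOB family, which promotes shortening of mRNA tails and is induced by p53 and by growth factors. It had 9.88 FPKM in Med1fl/fl and 24.1 FPKM in csMed1-/- heart (ratio 2.44, log2 ratio 1.29). Btg3 had 4.32 and 15.5 FPKM (ratio 3.59), whereas Btg1 (5.45 and 5.30 FPKM) and Tob1 (8.93 and 9.02 FPKM) were nearly equal in both libraries. Tob2 had 27.4 and 15.1 FPKM (ratio 0.553). The leading gene of the family was therefore Tob2 in control, with 48.9% of the summed FPKM, and Btg2 in csMed1-/- heart, with 34.9%. Btg4 was listed at 0 in both libraries.

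**Figure D3:**
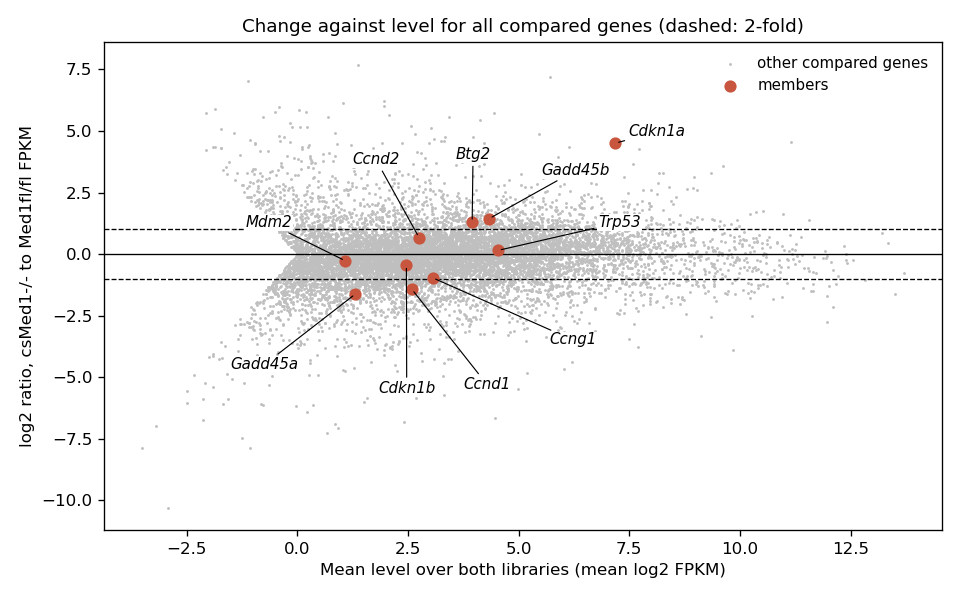
log2 ratio of csMed1-/- to Med1fl/fl FPKM (vertical axis) against the mean log2 FPKM of both libraries (horizontal axis) for the 10489 genes compared (grey) and the 10 members (red, named), with dashed lines at 2-fold. Cdkn1a stands at 4.51, and the other members lie between -1.62 and 1.44.

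Of 16 further genes of the Gadd, BTG/TOB and growth arrest specific groups, 12 could be compared, and 2 of these were higher and 0 lower by more than 2-fold (median log2 ratio 0.05), beside 13.6% and 18.0% of all genes compared. The higher genes were Btg3 and Ppp1r15a, also known as Gadd34, which directs a phosphatase to eIF2α under stress. Ppp1r15a had 13.7 and 90.1 FPKM (ratio 6.56). Gas1, a membrane protein linked to growth arrest, had 18.0 and 9.32 FPKM (ratio 0.517), and Ccng2, the relative of cyclin G1, had 1.38 and 1.46 FPKM.

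Beyond the members, 39 further p53 targets were listed, of which 29 could be compared. Among these 29, 11 (37.9%) were higher and 4 (13.8%) were lower by more than 2-fold, beside 13.6% and 18.0% of all genes compared. Their median log2 ratio was 0.47. With 1 FPKM required in each library, 10 were higher and 3 lower, beside 1037 and 1342 of the 9160 genes then compared. Of the 10 comparable targets that act in cell death, 4 were higher: Phlda3, an inhibitor of Akt (16.4 and 86.8 FPKM, ratio 5.30), Zmat3, an RNA-binding protein (2.43 and 7.18 FPKM, ratio 2.96), the death receptor gene Tnfrsf10b (1.37 and 3.87 FPKM, ratio 2.82) and Bax, which permeabilises mitochondria (49.6 and 115 FPKM, ratio 2.32). Bbc3, which encodes PUMA, had 2.09 and 2.39 FPKM, Fas had 3.15 and 3.31 FPKM, and Aen had 16.1 and 15.7 FPKM. Dram1, a regulator of autophagy, was lower (1.08 and 0.410 FPKM, ratio 0.381), though not past 2-fold with 1 FPKM added to both values. Pmaip1, which encodes NOXA, was listed at 0 in control and at 0.014 FPKM in csMed1-/- heart. Trp53inp1 had 0.0419 and 0.383 FPKM, below the level needed for comparison.

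Of the 19 comparable targets in repair, arrest and metabolism, 7 were higher and 3 lower by more than 2-fold. Over all genes compared the shares were 13.6% higher and 18.0% lower. Gdf15, a secreted stress cytokine, had 1.67 and 42.6 FPKM, and its ratio of 25.5 was above that of Cdkn1a. Thbs1, the matrix protein thrombospondin 1, had 0.543 and 3.79 FPKM (ratio 6.97). Thbs1 was compared only because it reached 1 FPKM in csMed1-/- heart, where it is high. With 1 FPKM required in each library, 6 targets of this list were higher and 3 lower past 2-fold. The counts over all genes were then 1037 and 1342 of 9160. The stress kinase gene Plk3 had a ratio of 4.07 (1.60 and 6.50 FPKM). The 3 lower genes were Ak1, the muscle adenylate kinase (775 and 217 FPKM, ratio 0.280), Tigar, a regulator of glycolysis (20.5 and 7.30 FPKM, ratio 0.357), and Sesn1, which restrains mTORC1 (27.5 and 11.1 FPKM, ratio 0.405). Its relative Sesn2 was higher, with 3.43 and 10.1 FPKM (ratio 2.95). The DNA repair genes Ddb2 (3.45 and 3.43 FPKM), Xpc (3.80 and 2.69 FPKM) and Polh (2.53 and 1.64 FPKM) were within 2-fold.

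**Figure D4:**
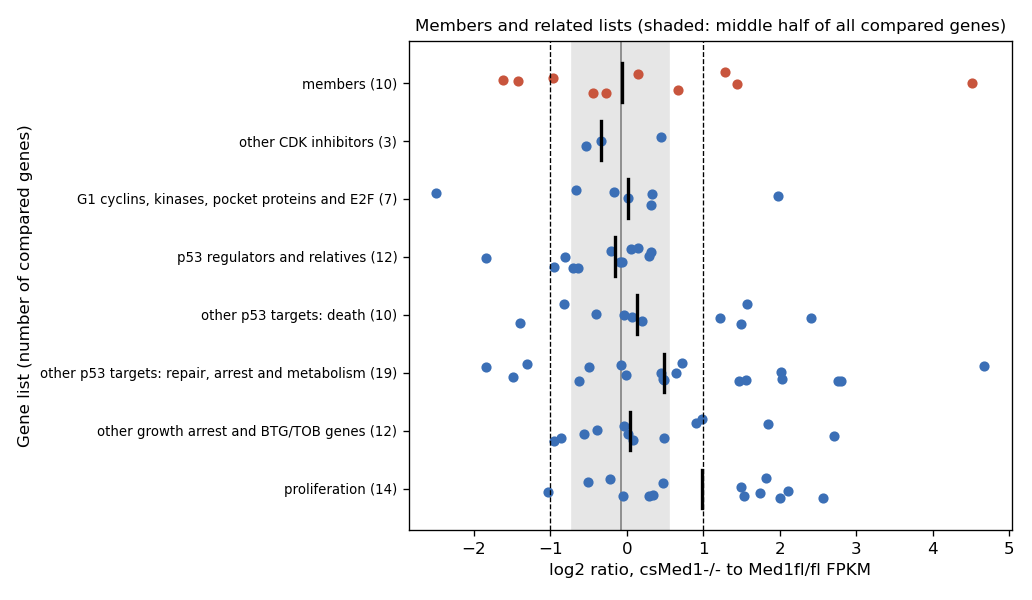
log2 ratio of csMed1-/- to Med1fl/fl FPKM for each comparable gene of the members (red) and of the related lists (blue), 1 point per gene, with the median of each list as a black bar, dashed lines at 2-fold and the middle quartiles of all genes shaded. The members and most lists centre near 0. The proliferation list has the highest median at 0.98, which is 0.29 with 1 FPKM required in each library. The p53 targets of repair, arrest and metabolism (median 0.49) reach 4.67 with Gdf15 and -1.84 with Ak1.

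Proliferation genes were low in both libraries. Of 22 listed, 14 could be compared, and 7 were higher and 1 lower by more than 2-fold (median log2 ratio 0.98), beside 13.6% and 18.0% of all genes compared. Of those 7, Cdc20 alone reached 1 FPKM in control, and the others were compared only because they did so in csMed1-/- heart, where they are high. Among genes of the list at 1 FPKM or more in each library, 1 was higher and 1 lower past 2-fold, and the median log2 ratio was 0.29. Over all genes, 1037 and 1342 of 9160 were then higher and lower. Plk1, a mitotic kinase, had 0.482 and 2.84 FPKM, Cdk1, which drives entry into mitosis, had 0.322 and 1.39 FPKM, and Cdc20, an activator of the anaphase-promoting complex, had 1.93 and 7.68 FPKM. Mcm2, a replicative helicase subunit, had 3.82 and 1.88 FPKM, and the other comparable Mcm genes were within 2-fold. With 0.1 FPKM added to both values or after median centring, Mcm2 was within 2-fold as well. With 1 FPKM added to both values, 3 genes of the list were higher past 2-fold and the median was 0.59.

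The heart is a mixture of cells, and in such bulk RNA fewer cells of a type cannot be told apart from less RNA per cell. The marker counts past 2-fold stand beside 13.6% higher and 18.0% lower of all genes compared. Of the 8 comparable cardiomyocyte markers 5 were lower by more than 2-fold and 0 higher. The summed level of the 8 was 34042 FPKM in Med1fl/fl and 9487 FPKM in csMed1-/- heart. That sum followed mainly Myl2 (20467 and 6571 FPKM) and Tnni3 (10283 and 1537 FPKM). Ttn (8.22 and 5.75 FPKM) and Myl7 (1.42 and 1.10 FPKM) were lower within 2-fold. Nkx2-5 was higher within 2-fold (146 and 188 FPKM). Of the 9 comparable fibroblast markers 5 were higher and 1 was lower past 2-fold, and all 10 summed to 521 and 1238 FPKM. That sum followed mainly the collagen genes Col1a1 (129 and 502 FPKM) and Col1a2 (95.7 and 314 FPKM). The other markers higher past 2-fold were Postn (1.57 and 27.4 FPKM), Fn1 (17.1 and 44.4 FPKM) and Tcf21 (10.9 and 25.6 FPKM). Pdgfra (4.09 and 4.03 FPKM) and Dcn (114 and 96.6 FPKM) were within 2-fold, and Lum (8.04 and 3.72 FPKM) was the lower gene. Of the 10 endothelial markers 7 were lower, 3 of them past 2-fold (Kdr, Tek and Emcn), and 1 was higher past 2-fold (Vwf), while their sum was 741 and 712 FPKM. The 8 smooth muscle and pericyte markers were split, 4 higher and 4 lower. Their sum of 722 and 1143 FPKM followed a single gene, Cnn1 (4.32 and 622 FPKM), and Acta2, the most abundant in control, had 573 and 310 FPKM. The macrophage markers summed to 336 and 385 FPKM, with 1 of 9 higher and 0 lower past 2-fold. All 8 lymphocyte markers were below 1 FPKM in both libraries. Of the 6 erythroid genes only 2 could be compared, and the 3 hemoglobin genes of the list were not found under their symbols. Alas2 had 35.8 and 82.1 FPKM and Slc4a1 had 0.642 and 3.17 FPKM. Slc4a1 was compared only because it reached 1 FPKM in csMed1-/- heart, where it is high. The part of such shifts in the values of the 10 members was not tested. A pair of cardiomyocyte loci, Actc1 and the joint row of Myh6 and Myh7, were listed at 0 in control and at 9189 and 647 FPKM in csMed1-/- heart. Heart muscle makes both transcripts in quantity, so a listed 0 in these data is not read as absence, and Actc1 was left out of the sums.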

How the data were processed

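RNA of 5 hearts per genotype was pooled and 1 polyadenylated, directional library per pool was sequenced (50 bp, single end). Alignment to mm10 by the authors used TopHat 2.0.8b, and they made the deposited FPKM values with Cufflinks and cuffdiff 2.1.1 from a UCSC annotation. The submitters' processing notes also list STAR 2.4.0h, Bowtie2 and DESeq2 without a role, and the library scaling is not given in the sources used here.

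From the deposited FPKM, rows sharing a symbol were summed (412 symbols, no member among them) and the plain ratio of csMed1-/- to Med1fl/fl was taken for genes not at 0 in any library and reaching 1 FPKM in one of them. Changes past 2-fold were counted, the fold used in the study. The study also applied a cutoff on the false discovery rate, which was not applied here, so the counts differ in kind. With 1 library per genotype no test was made, and groups of genes are given by counts and medians beside those of all genes. The members and lists were chosen with earlier results of these data known. Pidd1, Gas5 and the hemoglobin genes Hba-a1, Hbb-b1 and Hbb-bs had no row under these symbols, and Myh6 shared its row with Myh7. Cop1, Tigar and Adgre1 were read under the older symbols Rfwd2, 9630033F20Rik and Emr1. Named genes were all members, Med1, the list genes past 2-fold (at most 3 each way per list) or at 0, and for each member past 2-fold the 3 genes nearest over log2 FPKM. Further list genes were named for their function after their values were seen. Some list genes are not reported here by name.

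Positions and transcript lengths came from GENCODE M21 (GRCm38, also named mm10) and promoter windows from RefSeq. Alternatives were pseudocounts of 0.1 and 1, 3 other scalings, the highest row only, 3 other filters and a 4-fold threshold. An alternative was said to move a value when it differed by more than 1.5 times. The computation was tested on simulated data. Python 3.11.15, numpy 2.4.6, pandas 2.3.3 and matplotlib 3.10.9 were used.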

Additional observations from a re-analysis of the deposited data

How the results depend on the processing

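All 10 members kept their direction under both pseudocounts, the 3 other scalings and the highest row only. Cdkn1a stayed between 4.46 and 4.58 on the log2 scale, and the widest move was that of Gadd45a, from -1.62 to -1.15 with 1 FPKM added. The 3 other scalings shifted the log2 ratios by 0.07 or less. Leaving out the 100 highest genes in the scaling brought Ccng1 past 2-fold, which made 3 members lower. Past 4-fold there were 1 higher and 0 lower members, with 453 and 539 of all genes. At 10 FPKM or more in either library, 5 members were compared, 3 of them higher and 0 lower past 2-fold. Ccnd1 and Gadd45a lie under 10 FPKM in both libraries and were left out. In Med1fl/fl heart Btg2 (9.88 FPKM) and Ccnd1 (9.83 FPKM) were nearly equal. Btg2 was compared only because it reached 10 FPKM in csMed1-/- heart, where it is high, so the filter itself shaped this split. Of the 5426 genes then compared, 821 were higher and 885 lower. Without a filter, 2504 of 15930 genes were higher and 3182 lower. With 1 FPKM in both libraries, 1037 of 9160 genes were higher and 1342 lower. The count of other p53 targets higher past 2-fold was 11 under every scaling and pseudocount. It was 15 without a filter, 10 with 1 FPKM in both libraries, 7 at 10 FPKM and 6 past 4-fold. Those lower numbered 4 without a filter, 3 with 1 FPKM in both libraries, 3 at 10 FPKM and 0 past 4-fold. The number of these targets compared changed with the filter. No replicate could be left out, and no paired analysis was possible because each genotype has 1 library.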

Other observations

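The genes whose pair of levels lay nearest to that of Cdkn1a, by Euclidean distance over log2 FPKM of the 2 libraries, were Eln, which encodes elastin (48.4 and 923 FPKM, distance 0.782), the microfibril-associated gene Mfap4 (53.9 and 671 FPKM, distance 0.822) and Ctgf, a matricellular growth factor (30.0 and 373 FPKM, distance 0.894). These distances were larger than those of the genes nearest to the other 4 members past 2-fold. The 3 nearest to Gadd45a were Nexn, an actin-binding protein of the Z-disc, Ceacam1 and Sh3rf2, at distances of 0.0154 to 0.0650, and Nexn had 4.37 and 1.43 FPKM. Gadd45b was nearest to Ccnl2, Dynll1 and S100a4 (0.0411 to 0.0708), Btg2 to Cd14, Emp1 and Dcaf15 (0.0887 to 0.0942), and Ccnd1 to Gipc3, Spop and a row shared by Galr3 and Gcat (0.0505 to 0.0616). With 2 libraries, such nearness says only that the levels are alike in both.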
